A study of Mus musculus with 6 samples.

Results

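Cytochrome P450 families 2, 3 and 4 were examined in duodenal villi of mice. The members were the protein-coding genes whose symbol starts with Cyp2, Cyp3 or Cyp4 directly followed by a letter, taken from the GENCODE annotation of the mm9 genome through the Ensembl gene identifiers of the count table. The table held 56 of the 76 annotated members among its 20409 features, 33 in family 2, 8 in family 3 and 15 in family 4. The rule reads gene symbols and the protein-coding label of that annotation, so that Cyp2d37-ps, which has a pseudogene symbol, is included. Enough reads for a test were found for 33 members, and the other 23 were below the filter on low counts.

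These enzymes are haem proteins of the endoplasmic reticulum that insert an oxygen atom into their substrates, with electrons passed on by cytochrome P450 reductase (Por). Families 2 and 3 hold most of the enzymes that metabolise drugs and other foreign compounds, and they also oxidise steroids, bile acids and arachidonic acid. Family 4 hydroxylates fatty acids and leukotrienes, mostly at the end of the chain. In the small intestine they are found chiefly in the absorptive enterocytes of the villus, where they meet dietary compounds before the liver does, and many are switched on by the nuclear receptors PXR (Nr1i2), CAR (Nr1i3) and PPARα (Ppara) and by HNF4α (Hnf4a).

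The study asked how losing the transforming growth factor β mediator Smad4 while stabilising β-catenin changes the villus epithelium. RNA was taken from the villi of 3 wild-type and 3 double mutant mice, each library from 1 mouse. The double mutant mice were Smad4 fl/fl and Ctnnb exon3 fl/wt with Villin-CreERT2, which acts throughout the intestinal epithelium, and received tamoxifen at 0.05 g/kg on 4 consecutive days, with villi collected 7 days after the first injection. The wild-type mice were littermates without injection, so that tamoxifen itself and the mutations cannot be told apart. All mice were on a background enriched for C57BL6. Ages are not given in the sources used here, though the paper states matching by age and sex across groups. Replicate 1 of each group was male and replicates 2 and 3 were female. Of the 2 targeted genes, Smad4 stood at 120, 180 and 144 CPM (counts scaled to a common library size) in the wild-type mice and at 26.1, 36.8 and 32.1 in the double mutant mice, a log2 fold change of -2.22 ± 0.19 (SE, n = 3 and 3, adjusted p = 0.000145). Ctnnb1, the other, passed the test in neither direction. Here and below, fold changes are double mutant over wild type, CPM values are scaled by TMM normalization, and adjusted p-values come from edgeR's quasi-likelihood test over all 13346 genes tested, with a threshold of 0.05.

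The libraries held 19678507 to 26337318 counts. Wild-type replicate 1 stood apart from its group. Its 8 goblet cell markers summed to 125 CPM, against 11616 and 11039 in the other wild-type mice and 4669 to 5064 in the double mutant mice, and its 7 Paneth cell markers to 7.96 against 911 and 1502 CPM. The 15 enterocyte markers were abundant in every mouse and summed to 66862 to 77227 CPM in wild-type and 41989 to 43534 in double mutant villi. Among all tested genes 17% were lower and 19.7% higher in the double mutant, or 17.5% and 20.8% without replicate 1, and marker counts are read against these shares. Of the enterocyte markers 11 were lower and 1 was higher, and 5 of the 8 stem cell markers were higher with none lower. Of the 8 enteroendocrine markers 7 were lower, with sums of 241 to 330 CPM in wild-type and 98.9 to 109 CPM in double mutant villi. The Paneth cell markers summed to 154 to 248 CPM in double mutant mice, and with all mice none of the goblet or Paneth cell markers was lower and 1 goblet marker was higher. Without wild-type replicate 1, 5 of the 8 goblet markers were lower and 1 was higher, and 2 of the 6 tested Paneth cell markers were lower and 1 was higher. The part of these cell types in the P450 results was not tested. The 9 leukocyte markers summed to 69.6 to 116 CPM in wild-type and 53.8 to 92.0 in double mutant villi, and 2 of the 6 tested ones were lower, or 4 without wild-type replicate 1, with none higher in either fit. The mesenchyme and endothelium markers summed to at most 4.37 CPM in any mouse. In such bulk samples, fewer cells of a type and less RNA per cell cannot be told apart. Because replicate 1 sets several wild-type means of the P450 genes, results are also given without it.

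In double mutant villi 12 of the 33 tested P450 members were lower and 2 were higher. Among all tested genes 17% were lower and 19.7% were higher, so that lower members stood above the background share and higher members below it. The lower members were Cyp3a13 and Cyp3a44, Cyp2b10, Cyp2c29, Cyp2c65, Cyp2c66, Cyp2d22 and Cyp2u1, and Cyp4b1, Cyp4f13, Cyp4f14 and Cyp4v3. Both higher members, Cyp4f15 and Cyp4f40, belonged to family 4. An adjusted p under 0.05 together with a log2 fold change of -2 or below was reached by 5 members (Cyp2b10, Cyp2c29, Cyp2c66, Cyp3a44 and Cyp4b1), against 2.26% of all tested genes, and by 3 without wild-type replicate 1 (Cyp2b10, Cyp2c29 and Cyp3a44), against 2.25%. Every double mutant mouse was below every wild-type mouse for 14 members, the 12 lower ones with Cyp2c55 and Cyp3a11, where the background was 24.2% of genes. Every double mutant mouse was above every wild-type mouse for 3 members, Cyp2r1, Cyp4f15 and Cyp4f40, against 28.1%. The median log2 fold change of the tested members was -0.49, with 23 negative and 10 positive, while that of all tested genes was 0.02.

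**Figure D1:**
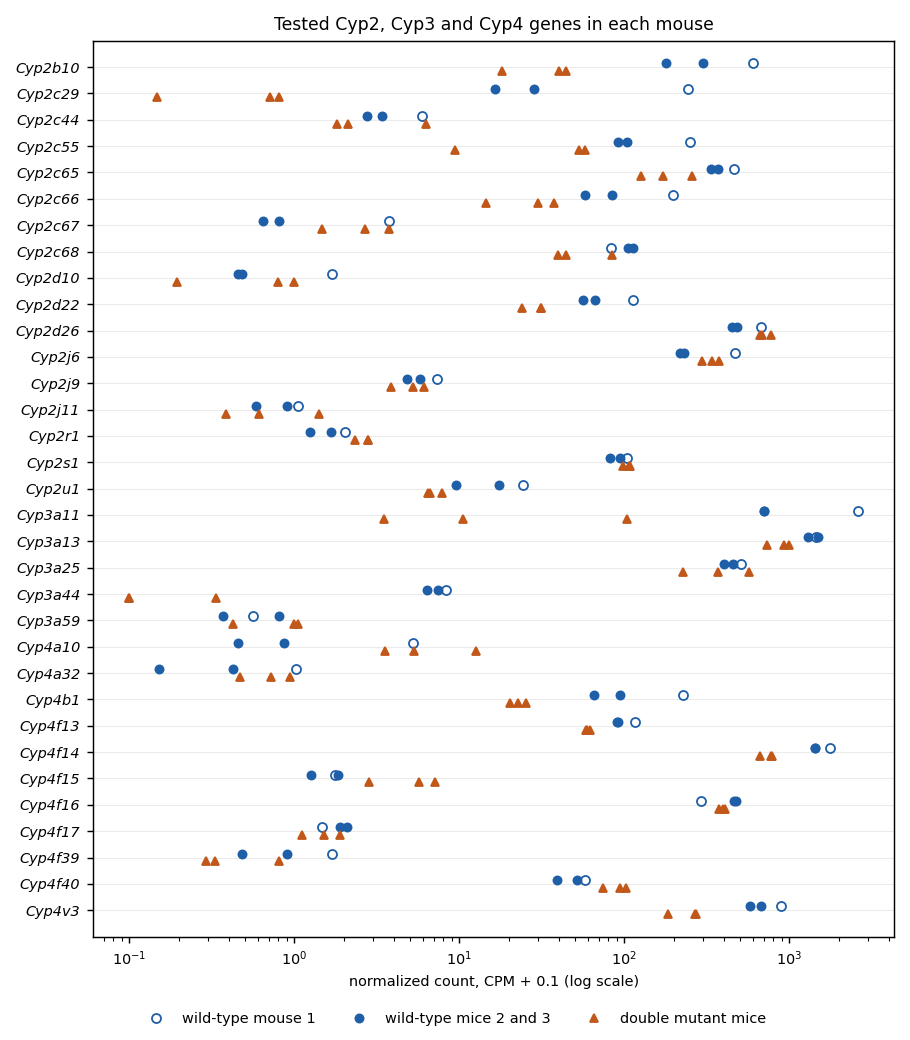
Normalized counts (CPM + 0.1, log axis) of the 33 tested members in each of the 6 mice; circles are wild-type mice, with replicate 1 open, and triangles are double mutant mice. The groups are fully apart for 17 members, 14 of them with the double mutant mice lower, and the open circle lies well to the right of the other wild-type mice for Cyp2c29, Cyp3a11 and Cyp4a10.

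Without wild-type replicate 1, 11 members were lower (all genes 17.5%) and 6 were higher (all genes 20.8%). Cyp2c66 was no longer lower, and Cyp2c67, Cyp2d26, Cyp2j6 and Cyp4a10 joined the higher members. The share of lower members again stood above the background, whereas that of higher members, 18.2%, was close to it. Replicate 1 was more than 2 times above both other wild-type mice for 11 members (Cyp2b10, Cyp2c29, Cyp2c55, Cyp2c66, Cyp2c67, Cyp2d10, Cyp2j6, Cyp3a11, Cyp4a10, Cyp4a32 and Cyp4b1), where 2.03% of all tested genes showed this. Outside these families Cyp1a1, the classic target of the aryl hydrocarbon receptor, stood at 350 CPM in that mouse and at 0.218 and 0.0505 CPM in the other wild-type mice, and Ephx1, the microsomal epoxide hydrolase, at 53.1 against 7.78 and 6.77 CPM. The part of sex, of cell composition and of any exposure in the levels of that mouse was not tested.

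Family 3 was led in wild-type villi by Cyp3a11 and Cyp3a13. Cyp3a11 (ENSMUSG00000056035, mm9 chr5:146666002-146691540, minus strand), the chief drug-metabolising Cyp3a enzyme of mice and the best known PXR target, stood at 2605, 706 and 706 CPM in wild-type replicates 1 to 3. In the double mutant mice it stood at 10.4, 3.39 and 103 CPM, so that the highest double mutant mouse was well below the lowest wild-type mouse. The log2 fold change was -5.10 ± 1.69 with an adjusted p of 0.0798, and -4.18 ± 1.75 with an adjusted p of 0.166 without wild-type replicate 1. The spread among the double mutant mice was wide, and without double mutant replicate 3, its highest mouse, the log2 fold change was -7.60 with an adjusted p of 0.0185. DESeq2 and limma-voom both called the gene lower, with adjusted p-values of 0.00118 and 0.00364.

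Cyp3a44 (ENSMUSG00000054417, chr5:146585559-146617450, minus strand), a neighbour of Cyp3a11, was far less abundant and almost lost. It stood at 8.16, 6.31 and 7.33 CPM in wild-type mice and at 0.235, 0 and 0 CPM in double mutant mice, where 5 counts in 1 mouse were all that was seen. The log2 fold change was -6.43 ± 0.72 (adjusted p = 0.000483). Its size depends on the few double mutant counts: it was -6.34 without wild-type replicate 1, -10.26 without double mutant replicate 1 and -10.11 in females only, and it was called lower in each. Without double mutant replicate 1 and in females only, every double mutant count was 0, so these sizes are not measured folds. Cyp3a44 passed the low-count filter only through the wild-type mice, so a call could only be lower. With double mutant libraries under 3 counts set to that floor, Cyp3a44 was at least 42.3-fold lower.

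Cyp3a13 (chr5:138334160-138362847, minus strand), the intestinal Cyp3a enzyme outside the main cluster, changed less and more evenly. Its levels were 1458, 1304 and 1499 CPM in wild-type mice and 932, 727 and 995 CPM in double mutant mice, without overlap. The log2 fold change was -0.68 ± 0.14 (adjusted p = 0.00699). Cyp3a25, another hepatic and intestinal member, stood at 510, 457 and 403 CPM against 371, 226 and 571 CPM, and its groups overlapped, with a log2 fold change of -0.23 ± 0.31 (adjusted p = 0.591). Cyp3a59 was near the detection limit in every mouse, at most at 0.949 CPM, and did not pass the test. The make-up of the family is described without a test. Cyp3a13 held 31.8, 52.7 and 57.3% of the summed Cyp3a counts of the wild-type mice and 70.9, 76.0 and 59.6% of those of the double mutant mice. These shares also depend on Cyp3a11, which did not pass the test.

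The proximal promoters of Cyp3a11 and Cyp3a44, the members of family 3 with the most negative fold changes (of which Cyp3a11 did not pass the test), and of Cyp2c29 and Cyp2c65, lower members of family 2, are shown because they hold letters that HNF4α or nuclear receptors are known to recognise. The sequences are from RefSeq on GRCm38.p6, from 250 bases before to 50 bases after the gene start and 5′ to 3′ on the strand of the gene, at chr5:145879805-145880104 (minus) for Cyp3a11, chr5:145805825-145806124 (minus) for Cyp3a44, chr19:39286835-39287134 (plus) for Cyp2c29 and chr19:39060756-39061055 (plus) for Cyp2c65. Capitals mark the HNF4 element CAAAGTCCA and the half-sites AGGTCA and AGTTCA, searched on both strands.
Cyp3a11: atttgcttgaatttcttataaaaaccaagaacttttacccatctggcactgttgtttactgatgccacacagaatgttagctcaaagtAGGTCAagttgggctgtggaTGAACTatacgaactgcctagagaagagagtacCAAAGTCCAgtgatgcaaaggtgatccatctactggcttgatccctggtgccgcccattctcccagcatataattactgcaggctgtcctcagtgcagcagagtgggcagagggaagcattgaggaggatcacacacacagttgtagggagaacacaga
Cyp3a44: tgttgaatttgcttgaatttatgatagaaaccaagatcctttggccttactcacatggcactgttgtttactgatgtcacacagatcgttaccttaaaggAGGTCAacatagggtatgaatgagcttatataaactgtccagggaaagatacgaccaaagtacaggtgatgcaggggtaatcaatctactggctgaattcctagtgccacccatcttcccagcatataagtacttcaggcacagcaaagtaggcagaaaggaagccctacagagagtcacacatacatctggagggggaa
Cyp2c29: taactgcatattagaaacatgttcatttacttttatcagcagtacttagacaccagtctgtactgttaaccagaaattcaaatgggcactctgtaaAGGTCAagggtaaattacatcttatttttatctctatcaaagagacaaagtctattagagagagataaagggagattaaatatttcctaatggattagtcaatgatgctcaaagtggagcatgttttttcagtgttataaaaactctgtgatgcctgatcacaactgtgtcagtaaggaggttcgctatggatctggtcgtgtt
Cyp2c65: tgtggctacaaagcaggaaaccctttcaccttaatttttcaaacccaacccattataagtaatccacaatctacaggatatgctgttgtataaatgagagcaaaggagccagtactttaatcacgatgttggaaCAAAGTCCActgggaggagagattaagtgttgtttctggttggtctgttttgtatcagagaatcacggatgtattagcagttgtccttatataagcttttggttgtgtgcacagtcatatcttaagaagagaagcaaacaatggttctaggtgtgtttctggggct

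The HNF4 element began 109 bases before the start of Cyp3a11 and 116 bases before that of Cyp2c65. Of the 46 members with a promoter sequence 10 held it, against 0.475% of the 32851 promoters searched, with members of unlike direction among them. It stood in 1 of the 10 lower members with a sequence (Cyp2c65), in neither of the 2 higher ones, in 3 of 16 tested members without a call (Cyp2c67, Cyp2c68 and Cyp3a11) and in 6 of 18 members that were not tested. Many of these members are close copies of each other, so their promoters are not independent. The half-site AGGTCA was found in 2 of 10 lower members, Cyp2c29 and Cyp3a44, and in 16.3% of all promoters, and AGTTCA in 2 of 10, Cyp4f13 and Cyp4v3, and in 14% of all. AGGTCA also stood in 3 of 16 tested members without a call and 5 of 18 not tested, and AGTTCA in 2 of 16 and 4 of 18. Neither half-site was in the 2 higher members. The letters CTTTGAT or CTTTGAA, to which TCF partners of β-catenin bind, were in 2 of 10 lower members, Cyp2c29 and Cyp3a13, and in 8.65% of all promoters. They were in 0 of 2 higher members, 0 of 16 without a call and 1 of 18 not tested. A match of letters is a description of the sequence and not a measured binding site.

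Cyp2b10 (ENSMUSG00000030483, chr7:26682639-26711643, plus strand), the classic CAR target, was among the steepest falls of family 2. It stood at 600, 298 and 178 CPM in wild-type mice and at 40.3, 17.9 and 44.3 CPM in double mutant mice. The highest double mutant mouse was well below the lowest wild-type mouse. The log2 fold change was -3.39 ± 0.61 (adjusted p = 0.00985) and -2.80 ± 0.47 (adjusted p = 0.0104) without wild-type replicate 1, but among the 4 female mice alone the adjusted p was 0.0636.

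The Cyp2c genes, many of them epoxygenases or hydroxylases of arachidonic acid, included 7 tested members, of which 3 were lower and none higher, or 2 and 1 without wild-type replicate 1 (all genes 17% and 19.7%, or 17.5% and 20.8%). Cyp2c29 (ENSMUSG00000003053, chr19:39315441-39405189, plus strand) stood at 241, 28.4 and 16.4 CPM in wild-type mice and at 0.61, 0.0464 and 0.712 CPM in double mutant mice. Each double mutant mouse was far below each wild-type mouse, while wild-type replicate 1 was 10.8 times the mean of the other two. The log2 fold change of -7.70 ± 1.78 (adjusted p = 0.0307) became -5.60 ± 0.58 (adjusted p = 0.000729) without that mouse, and its error shrank with it. Without double mutant replicate 1, 2 or 3 the adjusted p was 0.0834, 0.112 or 0.0963, while limma-voom gave 0.101 and the fit without a low-count filter 0.053.

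Cyp2c65 (chr19:39135505-39168434, plus strand) was the most abundant Cyp2c member, at 464, 372 and 337 CPM in wild-type and 256, 126 and 170 CPM in double mutant villi. Its log2 fold change was -1.08 ± 0.26 (adjusted p = 0.0137), and the groups did not overlap. The neighbouring Cyp2c66 (chr19:39188388-39261562, plus strand), which is 96.3% identical to Cyp2c65 over the coding sequence, stood at 197, 83.7 and 57.8 CPM against 37.6, 14.3 and 29.9 CPM, a log2 fold change of -2.05 ± 0.60 (adjusted p = 0.0468). This call was lost when any mouse but wild-type replicate 3 was left out: the adjusted p was 0.0535 without wild-type replicate 1, where the log2 fold change was -1.38, and 0.0802 without replicate 2, and 0.0714, 0.115 and 0.114 without double mutant replicates 1, 2 and 3. It was also lost with library size alone (0.0559), without a low-count filter (0.117) and in females only (0.0556). Of the 150-base windows of its transcript 5.47% also occur in Cyp2c65, so some reads may have been counted for either gene or for neither.

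Cyp2c55 stood at 249, 104 and 91.4 CPM in wild-type mice and at 57.6, 9.32 and 53.2 CPM in double mutant mice, again without overlap. Its log2 fold change of -1.89 ± 0.81 did not pass the test (adjusted p = 0.136) and was -1.29 without wild-type replicate 1 (adjusted p = 0.327), while limma-voom called it lower (adjusted p = 0.0396). Cyp2c68 stood at 83.4, 112 and 105 against 84.4, 39.4 and 44.4 CPM, where double mutant replicate 1 lay within the wild-type range. Its log2 fold change was -0.84 ± 0.29 (adjusted p = 0.058), and without that mouse -1.27 with an adjusted p of 0.00259. It was also called lower with RLE scaling (adjusted p = 0.0486), with sex as a term (0.0462), in females only (7.8e-05), by limma-voom (0.0317) and by DESeq2 (0.00398). Cyp2c67 stood at 3.62, 0.544 and 0.708 against 1.36, 2.60 and 3.65 CPM, and its log2 fold change of 0.62 (adjusted p = 0.542) became 2.01 ± 0.50 (adjusted p = 0.0105) without wild-type replicate 1 and 2.30 (adjusted p = 0.00251) in females only. Cyp2c44, an arachidonic acid epoxygenase, stood at 5.83, 2.67 and 3.29 against 2.02, 1.72 and 6.17 CPM and was not called.

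Of 3 tested Cyp2d genes 1 was lower and none was higher, or 1 and 1 without wild-type replicate 1, against 17% and 19.7%, or 17.5% and 20.8%, of all tested genes. Cyp2d22 (chr15:82200958-82210690, minus strand), a mouse relative of the human drug-metabolising CYP2D6, stood at 113, 65.9 and 55.8 CPM in wild-type and 31.0, 31.3 and 24.0 CPM in double mutant villi, with a log2 fold change of -1.44 ± 0.27 (adjusted p = 0.00506). Cyp2d26 stood at 673, 483 and 446 against 778, 683 and 663 CPM, with a log2 fold change of 0.41 ± 0.17 (adjusted p = 0.0873). Without wild-type replicate 1, the only wild-type mouse within the double mutant range, it was 0.61 ± 0.13 (adjusted p = 0.00489). Cyp2d26 was also called higher with library size alone (adjusted p = 0.0164), with sex as a term (0.0258) and in females only (0.007). Per kilobase of exon, Cyp2d26 was the most abundant tested member in double mutant villi, at 430 ± 37.3 RPKM (SD, n = 3), and the fourth in wild-type villi, at 325 ± 73.8 RPKM.

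Among the other family 2 members, Cyp2u1 (chr3:130993409-131006145, minus strand), a hydroxylase of long-chain fatty acids, was lower. It stood at 24.3, 17.3 and 9.45 CPM against 6.53, 6.40 and 7.78 CPM, with a log2 fold change of -1.30 ± 0.31 (adjusted p = 0.0133). The call was narrow, with adjusted p-values of 0.051 and 0.0553 without double mutant replicate 1 or 2. A gene on the opposite strand, 4930534D22Rik, overlaps 548 of its exon bases, but had at most 24 counts in any mouse.

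Cyp2j6 stood at 468, 229 and 219 CPM against 373, 297 and 340 CPM. All 3 double mutant mice were below wild-type replicate 1 and above the other wild-type mice, and its log2 fold change of 0.14 ± 0.29 (adjusted p = 0.737) was 0.59 ± 0.13 (adjusted p = 0.00668) without that replicate and 0.51 (adjusted p = 0.00949) in females only. Cyp2r1, a 25-hydroxylase of vitamin D, stood at 1.92, 1.14 and 1.57 CPM against 2.68, 2.69 and 2.23 CPM. Its groups did not overlap, but its log2 fold change of 0.71 ± 0.32 did not pass the test (adjusted p = 0.114). Cyp2s1, found mainly outside the liver, stood at 82.0 to 103 CPM in wild-type mice and 98.0 to 108 CPM in double mutant mice, 0.16 ± 0.12 apart on the log2 scale (adjusted p = 0.318), and was called higher with library size alone (0.36, adjusted p = 0.0353).

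Family 4 counts varied least among the wild-type mice, summing to 3354, 2794 and 2692 CPM, against 1664, 1539 and 1481 CPM in double mutant mice. Cyp4f14 (chr17:33042016-33054023, minus strand), which hydroxylates leukotriene B4 and vitamin E, was the most abundant tested member in wild-type villi per kilobase, at 701 ± 86.7 RPKM (SD, n = 3). It stood at 1760, 1422 and 1438 CPM in wild-type mice and at 780, 769 and 665 CPM in double mutant mice, a log2 fold change of -1.06 ± 0.13 (adjusted p = 0.000709). Cyp4f13 (chr17:33061633-33084347, minus strand), its neighbour, stood at 115, 90.2 and 91.2 against 58.5, 59.2 and 62.2 CPM, with a log2 fold change of -0.72 ± 0.13 (adjusted p = 0.00296). Both calls held whichever mouse was left out.

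Cyp4f15 and Cyp4f40, both on the plus strand of the same stretch of chromosome 17, went the other way. Cyp4f40 (chr17:32796355-32813632) stood at 57.3, 51.5 and 39.0 CPM in wild-type mice and at 102, 94.2 and 74.2 CPM in double mutant mice, a log2 fold change of 0.87 ± 0.17 (adjusted p = 0.00552). Cyp4f15 (chr17:32822572-32840297), a leukotriene hydroxylase, was scarce at 1.67, 1.74 and 1.16 CPM and rose to 5.63, 2.74 and 6.98 CPM, a log2 fold change of 1.74 ± 0.39 (adjusted p = 0.0088). Neither call depended on any single one of the 6 mice. Cyp4f16 stood at 291, 461 and 476 CPM against 410, 398 and 374 CPM, with wild-type replicate 1 here the lowest of all mice, and was not called (log2 fold change -0.06 ± 0.18, adjusted p = 0.835). The other tested members, Cyp2d10, Cyp2j9, Cyp2j11, Cyp4f17 and Cyp4f39, stayed at or below 7.21 CPM in every mouse, and none passed the test.

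Cyp4v3 (chr8:46391155-46418570, minus strand), a fatty acid hydroxylase, stood at 892, 670 and 578 CPM in wild-type mice and at 267, 185 and 272 CPM in double mutant mice, a log2 fold change of -1.56 ± 0.21 (adjusted p = 0.000929). Klkb1 overlaps 313 of its exon bases on the same strand and had at most 34 counts in any mouse. Cyp4b1 (chr4:115297303-115320322, minus strand), which oxidises fatty acids and some plant toxins, stood at 227, 94.1 and 65.4 against 25.3, 22.5 and 20.3 CPM. Its log2 fold change was -2.51 ± 0.49 (adjusted p = 0.0112) and -1.81 ± 0.17 (adjusted p = 7.3e-05) without wild-type replicate 1, while without double mutant replicate 2 the adjusted p was 0.0612.

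Cyp4a10, a fatty acid hydroxylase and PPARα target, stood at 5.12, 0.762 and 0.354 CPM in wild-type mice and at 12.5, 5.24 and 3.46 CPM in double mutant mice. Its log2 fold change of 1.73 ± 1.00 (adjusted p = 0.23) was 3.66 ± 0.74 (adjusted p = 0.00875) without wild-type replicate 1, again the only wild-type mouse within the double mutant range. Cyp4a10 was also called higher with sex as a term (2.24, adjusted p = 0.00663) and in females only (2.96, adjusted p = 0.00106). Cyp4a10 is 97.2% identical to Cyp4a32 over the coding sequence, with 4.34% of its windows shared with Cyp4a31 or Cyp4a32, and the way reads were split between them is not given in the sources used here. Cyp4a32 reached at most 0.916 CPM and Cyp4a31 at most 11 counts.

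**Figure D2:**
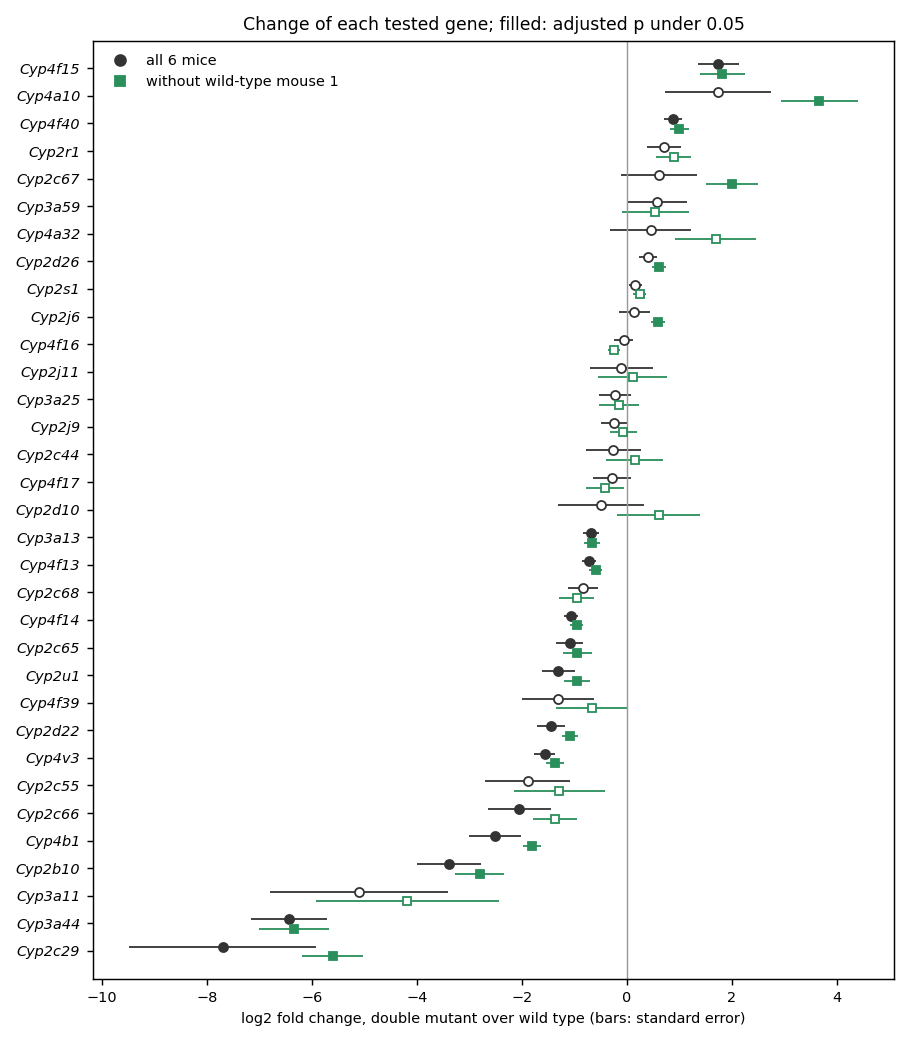
Log2 fold change (double mutant over wild type) of each tested member with its standard error, for all 6 mice (circles) and without wild-type replicate 1 (squares); filled marks have an adjusted p under 0.05. Cyp2c29 runs from -7.70 to -5.60 between the fits, and Cyp2c67, Cyp2d26, Cyp2j6 and Cyp4a10 are filled only without replicate 1.

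Of the 23 members that were not tested, 10 had at most 3 counts in every mouse: Cyp2a5, Cyp2c69, Cyp2d37-ps, Cyp2j13, Cyp2w1, Cyp3a16, Cyp3a41a, Cyp3a41b, Cyp4a12b and Cyp4f18. At this depth 3 counts were 0.125 to 0.163 CPM, which is the level up to which absence of reads says nothing. Cyp3a41a and Cyp3a41b are 99.9% identical over the coding sequence and share 82.8 and 82.6% of their windows, so reads of either may not have been counted. Only Cyp2c38, Cyp2d34 and Cyp2e1 had more than 12 counts in any mouse. Cyp2c38 had 61, 8 and 5 counts in the wild-type mice and 0, 0 and 2 in the double mutant mice, which was at least 7.65-fold lower against a floor of 3 counts per library, or at least 2.45-fold without wild-type replicate 1. Cyp2d34 had 28 counts in wild-type replicate 1 and at most 2 in any other mouse. Cyp2e1, the ethanol-oxidising enzyme of hepatocytes, had 23 counts in double mutant replicate 2 and at most 1 in the others. That library also had 206 counts of Alb, the hepatocyte product albumin, against 3 to 27 in the others, with 17 of Ahsg and 12 of Hp against at most 1 and 2 in the other mice. All 9 hepatocyte markers together summed to 786 to 1235 CPM in wild-type and 930 to 1242 CPM in double mutant villi, nearly all from Apoc3 and Cps1. Of the 4 tested ones Ttr, Tat and Cps1 were higher and Apoc3 was lower, with or without wild-type replicate 1. The part of liver RNA in its Cyp2e1 reads was not tested.

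Summed over all 56 members, the P450 RNA came to 11178, 7167 and 6921 CPM in wild-type mice and 4767, 3834 and 4655 CPM in double mutant mice. The wild-type mean was 1.91 times the double mutant mean, or 1.59 times without wild-type replicate 1. Before normalization these were 1.02, 0.668 and 0.664% of all counts in wild-type mice and 0.516, 0.406 and 0.496% in double mutant mice. The sums of family 3 stood 2.45 times (1.94 without replicate 1) higher in wild type, those of family 4 1.89 times (1.76) and those of family 2 1.46 times (1.14). The mean family 3 sum was 3224 CPM in wild-type mice (2545.5 without replicate 1) and 1314 CPM in double mutant mice. Of these sums Cyp3a11, which did not pass the test, held 1339 (706) and 39.0 CPM.

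Within family 2, Cyp2c summed to 1247, 704 and 611 CPM against 440, 194 and 309 CPM, without overlap. Cyp2d summed to 789, 549 and 503 against 810, 716 and 687 CPM, and Cyp2j to 226 to 476 against 302 to 381 CPM. These sums have no test, since they follow from their leading members: Cyp2d26 held 85.3 to 96.4% of the Cyp2d sum and Cyp2j6 96.9 to 98.5% of the Cyp2j sum in every mouse. Cyp4f summed to 2228, 2029 and 2048 CPM against 1358, 1325 and 1185 CPM. The order of the members changed with these shifts. Per kilobase, Cyp3a11 went from the second highest wild-type level, 571 ± 468 RPKM (SD, n = 3), to the 14th highest in double mutant villi, 16.7 ± 23.8 RPKM. Without wild-type replicate 1 its wild-type level was 301 RPKM, the third highest after Cyp4f14 and Cyp3a13. Cyp4f40 went from the 18th to the 9th.

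**Figure D3:**
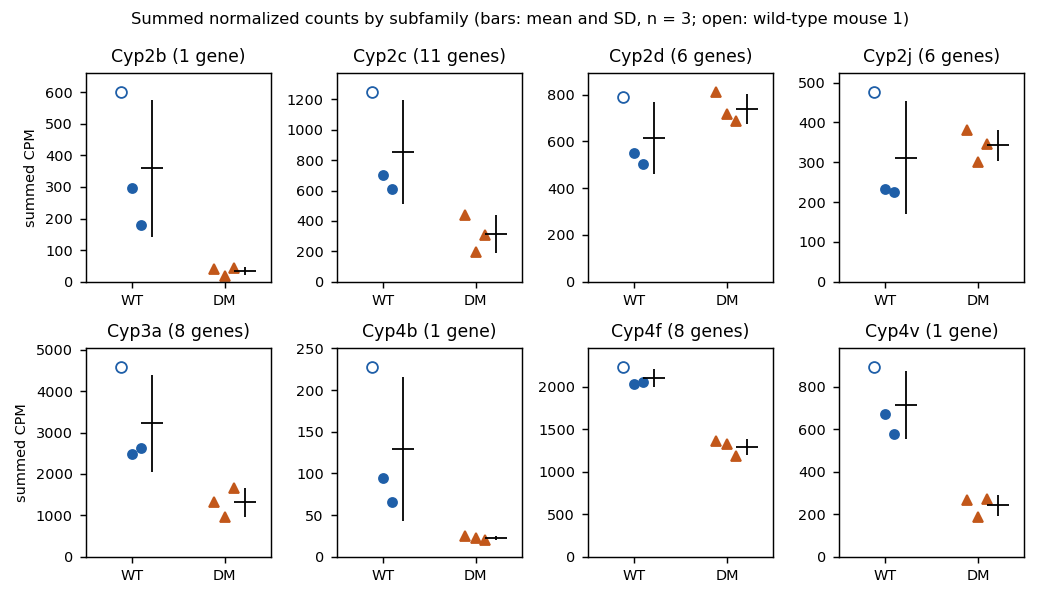
Summed CPM of 8 subfamilies in each mouse, with axes from 0; circles are wild-type (WT) and triangles double mutant (DM) mice, bars the mean and SD of 3 mice, and the open circle wild-type replicate 1. Cyp2b, Cyp2c, Cyp3a, Cyp4b, Cyp4f and Cyp4v are apart between the groups, while Cyp2d and Cyp2j overlap because of replicate 1.

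Of 16 tested partners that supply electrons and haem 2 were lower and 1 was higher, or 3 and 2 without wild-type replicate 1. The share of lower genes was near that of all tested genes, 17%, and that of higher genes below 19.7%. Por, the electron donor of all microsomal P450 enzymes, stood at 386, 370 and 357 CPM in wild-type mice and 305, 309 and 371 CPM in double mutant mice, a difference of -0.18 ± 0.12 on the log2 scale (adjusted p = 0.266). The lower genes were Pgrmc1, a haem-binding P450 partner (-0.74 ± 0.13, adjusted p = 0.00318), and Cyb5r3, the cytochrome b5 reductase (-0.54 ± 0.11, adjusted p = 0.00686). The higher gene was the haem-degrading Hmox1 (1.67 ± 0.45, adjusted p = 0.0189), whose call was lost without double mutant replicate 2 or 3 (adjusted p = 0.0649 and 0.0728).

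Of 33 tested nuclear receptors and other regulators of P450 genes, 10 were lower and 3 were higher, or 8 and 5 without wild-type replicate 1, against 17% lower and 19.7% higher among all tested genes. Nr1i2 and Nr1i3 did not pass the test, while Rxra, whose product pairs with both receptors (log2 fold change -0.48 ± 0.11, adjusted p = 0.0102), and Vdr, the vitamin D receptor gene (-0.64 ± 0.13, adjusted p = 0.00589), were lower. Nr1i2, the PXR gene, stood at 124, 120 and 125 CPM in wild-type mice against 117, 131 and 149 CPM in double mutant mice (log2 fold change 0.11 ± 0.12, adjusted p = 0.487), and Nr1i3, the CAR gene, at 67.1, 55.2 and 54.5 against 63.2, 78.1 and 84.4 CPM (0.35 ± 0.14, adjusted p = 0.0865). Without wild-type replicate 1 or without double mutant replicate 1, Nr1i3 was higher (adjusted p = 0.0355 and 0.042), as it was with library size alone (0.0131) and in females only (0.00541). RNA levels of a receptor do not measure its activity.

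Hnf4a stood at 917, 1030 and 938 CPM against 704, 786 and 718 CPM, a log2 fold change of -0.39 ± 0.11 (adjusted p = 0.0256). This call did not hold without wild-type replicate 2 or 3 (adjusted p = 0.0874 and 0.0546), without double mutant replicate 1 or 3 (0.0585 and 0.0916), or when scaled by library size alone (0.193). The largest falls of the list were those of the circadian factors Hlf, from 12.1, 7.07 and 3.74 to 1.03, 0.464 and 0.712 CPM (-3.37 ± 0.50, adjusted p = 0.00153), and Tef (-0.98 ± 0.23, adjusted p = 0.0114). Ppara rose from 12.0, 9.30 and 10.5 to 29.6, 17.5 and 18.7 CPM (1.05 ± 0.22, adjusted p = 0.00714), and Cebpa (0.68 ± 0.16, adjusted p = 0.0106) and the bile acid receptor gene Nr1h4 (0.60 ± 0.12, adjusted p = 0.00458) were the other higher genes.

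Of 13 genes for epoxide hydrolases and eicosanoid enzymes, which act on the same lipids, 7 were tested, 4 were lower and none was higher, as also without wild-type replicate 1, against 17% and 19.7% of all tested genes. Ptgs1, the constitutive cyclooxygenase, stood at 9.75, 7.45 and 10.7 against 0.61, 0.139 and 0.522 CPM (-4.44 ± 0.43, adjusted p = 0.000253), and Alox5, the first enzyme of leukotriene synthesis, at 12.5, 10.7 and 15.2 against 1.22, 0.649 and 0.617 CPM (-3.94 ± 0.31, adjusted p = 0.000114). Ptgs1 is itself one of the 8 tuft cell markers, which summed to 131 to 180 CPM in wild-type and 13.8 to 15.8 CPM in double mutant villi, where all 7 tested ones were lower; the part of tuft cells in these falls was not tested. Hpgd, which inactivates prostaglandins (-1.66 ± 0.29, adjusted p = 0.00401), and Ephx2, the soluble epoxide hydrolase (-0.60 ± 0.16, adjusted p = 0.02), were the other lower genes. The call of Ephx2 was lost without double mutant replicate 2 or 3 (adjusted p = 0.0612 and 0.0711) and when scaled by library size alone (0.0676).

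Among 15 genes of other P450 families 6 were tested, of which none was lower (all genes 17%) and 3 were higher, or 4 higher without wild-type replicate 1, against 19.7% and 20.8% higher among all tested genes. Of the 3 higher ones, Cyp1b1 and Cyp26b1 passed the low-count filter only through the double mutant mice, so they could only be called higher. Cyp1b1 had no counts in any wild-type mouse and stood at 11.4, 6.35 and 4.65 CPM in the double mutant mice. Cyp20a1 rose from 2.17, 2.77 and 2.93 to 10.0, 11.1 and 8.16 CPM (1.90 ± 0.22, adjusted p = 0.00055), and Cyp26b1, which degrades retinoic acid, from 0.167, 0.0544 and 0.0505 to 2.07, 0.603 and 0.712 CPM (3.49 ± 0.77, adjusted p = 0.00834). Cyp26b1 had few wild-type counts, and its log2 fold change was 2.70 without double mutant replicate 1 and 4.27 without wild-type replicate 1. Cyp1a1, at 33.4, 21.0 and 4.51 CPM in double mutant mice, gave -2.58 ± 2.62 as its log2 fold change (adjusted p = 0.497) and 7.16 (adjusted p = 0.0381) without wild-type replicate 1.

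**Figure D4:**
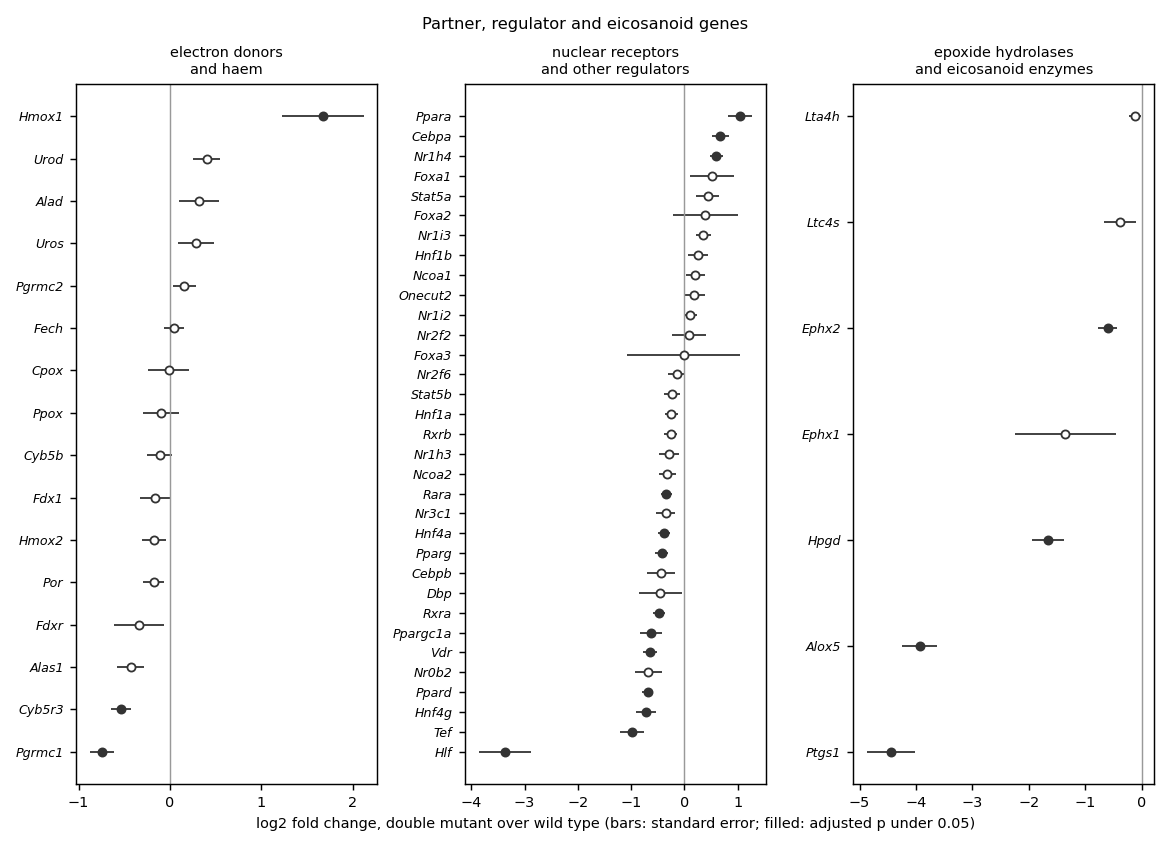
Log2 fold change (double mutant over wild type, standard error bars) of the tested genes that supply electrons and haem, of nuclear receptors and other regulators, and of epoxide hydrolases and eicosanoid enzymes; filled circles have an adjusted p under 0.05. Of these genes 2, 10 and 4 were lower and 1, 3 and 0 were higher, and Ptgs1, Alox5 and Hlf lie farthest from 0.

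Close copies set a limit on single members. Of the 33 tested members 22 had no window of 150 bases, the read length, in common with the coding transcript of another gene, and 11 did. Among lower members Cyp2c65 and Cyp2c66 shared 4.55 and 5.47% of their windows with each other and Cyp4v3 5.85% with Klkb1, while Cyp3a44 and Cyp2c29 shared none. Cyp2c40 and Cyp2c68 are 98.1% identical over the coding sequence, Cyp2c40 and Cyp2c67 97.7%, and Cyp3a25 and Cyp3a59 97.5%, so the split of reads within these pairs is uncertain. With library size alone in place of TMM scaling the median log2 fold change of all tested genes moved from 0.02 to 0.22 and that of the members from -0.49 to -0.28, and the calls over all genes went from 2273 lower and 2632 higher to 1425 lower and 3732 higher, with 11 members lower and 4 higher.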

How the data were processed

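Poly(A) RNA from duodenal villus epithelium, released with EDTA, was sequenced as 150 bp pairs. The study took RNA with an integrity number (RIN) above 4. The methods of the study give 5 mM EDTA, the labels a lower strength. The authors aligned reads to mm9 with HISAT2 2.0.5 and deposited raw counts per gene from featureCounts, 1 column per mouse, with no normalization or pooling; strand setting, annotation and the treatment of reads with several matches are not given in the sources used here. From these counts, genes kept by filterByExpr (13346) were scaled by TMM and tested with edgeR 4.0.16 (quasi-likelihood, robust) in R 4.3.3, with Benjamini-Hochberg adjustment; the SE is the log2 fold change over the square root of F. RPKM is CPM per kilobase of joined exons. Alternatives were DESeq2 1.42.0, limma-voom 3.58.1, RLE or library size scaling, other count filters, a fold threshold, sex or replicate number as terms, females only, and each mouse left out, which kept the 13346 genes. The test was first run on simulated counts. Coding identity stood in for protein identity. Members named were those called with or without wild-type replicate 1, the highest tested member per subfamily per kilobase, and the 2 largest changes each way in a list; others were named after their values were seen. The members and lists were chosen with earlier results of these data known. Cyb5a and Rxrg were not analysed here. One gene of the electron donor and haem list is not reported here. Groups follow the labels; p-values reflect the spread between 3 mice per group. Floors of 3 counts cover counting error only.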

Additional observations from a re-analysis of the deposited data

How the results depend on the processing

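The count of 12 lower members was 8 to 12 when a mouse was left out, with 8 without double mutant replicate 2, and 11 to 15 under the other scalings, filters, tests and terms. The counts of 15 by DESeq2 and 11 without a low-count filter also cover members below the main filter, so they are not counts among the tested members alone. With a log2 fold change of at least 2 in size also required, it was 5. The count of 2 higher members was 4 with library size alone, 4 with sex as a term, 6 in females only, 0 with the fold threshold, and 2 to 6 when a mouse was left out, with 6 without wild-type replicate 1. Over all tested genes 2632 were higher in the main fit, 3732 with library size alone and 2774 without wild-type replicate 1. The shares over all genes with sex as a term and in females only are not given here. Deviations of same-numbered mice from their group means correlated at -0.00542, -0.201 and 0.00597. With 3 mice per group, and wild-type replicate 1 apart from its group, this cannot decide whether the mice were matched. The paper states matching by age and sex across groups. With the replicate block 12 members were lower and 3 higher, with Cyp4a10 added at a log2 fold change of 2.28, and over all genes 1750 were lower and 2084 higher. No called member changed sign under any alternative run. Among members without a call, the log2 fold change turned positive for Cyp2c44 (0.40) and Cyp2d10 (0.11) in females only, and for Cyp2j11 (0.093) and Cyp4f16 (0.13) with library size alone. When a mouse was left out, it ran from -1.08 to 0.15 for Cyp2c44, from -0.99 to 0.61 for Cyp2d10, from -0.048 to 0.59 for Cyp2j6, from -0.93 to 0.27 for Cyp2j11, from -0.62 to 0.021 for Cyp3a25, from -0.054 to 1.69 for Cyp4a32 and from -0.25 to 0.068 for Cyp4f16. The causes were not tested. With 3 mice per group, an exact permutation test of a single value cannot go below 0.1, and members under the 3-count floor in both groups give no fold.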
